A study of Mus musculus with 34 samples.

Results

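The circadian clock genes described here are *Per1*, *Per2*, *Per3*, *Dbp*, *Tef*, *Nr1d1*, *Nr1d2*, *Arntl*, *Ciart* and *Bhlhe41*. They were taken by symbol from the deposited expression table, in which each of the 10 symbols names 1 of the 16389 genes. All 10 passed the filter on low values and were among the 14710 genes tested. The table holds 34 RNA-seq libraries of bulk tissue from male C57BL/6 mice, taken from the cortex, the hippocampus, and the thalamus dissected together with the striatum. WT CON mice were neither irradiated nor given an inhibitor. GFP-BM CON mice received 1000 cGy of whole-body irradiation and bone marrow from CAG-EGFP donors, in which a ubiquitous promoter drives the green fluorescent protein, and no PLX3397. GFP-BM REPOP mice received the same irradiation and marrow and, 3.5 months later, chow with 600 ppm of PLX3397, an inhibitor of the receptor CSF1R that eliminates microglia, for 14 days, followed by 6 months of recovery. Irradiation was given at 4 months of age in this experiment, and tissue was collected about 10 months after it. The age of the WT CON mice and the hour of collection are not given in the sources used here, and all mice were housed under a regular light-dark cycle. Mice of the study underwent behavioural tests at 1 and 6 months of recovery, with contextual fear conditioning, which includes a shock, as the last task. Whether each sequenced animal was so tested is not stated in the sources used here.

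The 12 animals, 4 per treatment, gave up to 3 regions each. There were 11 cortex libraries (WT CON 3, GFP-BM CON 4, GFP-BM REPOP 4), 12 of the hippocampus (4 per treatment) and 11 of the thalamus (WT CON 4, GFP-BM CON 3, GFP-BM REPOP 4). Since the regions of an animal share its hour of death, its handling and its history, the 3 regions are not independent observations of a treatment. Animals are named by the number of their hippocampal library. WT CON animal 1 had no cortex library, so that cortex replicates 1, 2 and 3 of WT CON came from animals 2, 3 and 4. The thalamus of GFP-BM CON animal 3 was not analysed here, and thalamus replicate 3 of that group came from animal 4.

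The mammalian clock is a feedback loop of transcription. *Arntl*, which encodes BMAL1, forms an activator with CLOCK that binds E-boxes and switches on the Period genes, *Dbp*, *Nr1d1*, *Nr1d2*, *Ciart* and *Bhlhe41*, whose products act back on the loop. PER1, PER2 and PER3 are part of the repressor complex. NR1D1 and NR1D2, the REV-ERB nuclear receptors, repress *Arntl*. DBP and TEF are PAR bZIP activators that bind D-boxes. CIART and BHLHE41 repress transcription at E-boxes. In most tissues *Arntl* therefore peaks when *Dbp*, the Period genes and the REV-ERB genes are low. *Per1* is also induced within minutes by neuronal activity and by glucocorticoids, in the manner of an immediate early gene.

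The binding sequences of this loop were looked for in the promoters of the members, and none was found in all of them. The files and the promoter sequences use the same mouse build (mm10, GRCm38.p6). RefSeq promoters, from 250 bases before to 50 bases after a start, were matched for 9 of the 10 members. Of all 32851 promoters of this length, 7.15% hold an E-box (CACGTG, the same on both strands), 4.68% hold CACGTT or its reverse complement AACGTG, 1.06% hold a D-box (TTATGTAA or TTACGTAA, either strand), 6.45% hold the core of a REV-ERB/ROR element (TAGGTCA or TGGGTCA, either strand) and 1.79% hold a CRE (TGACGTCA). By gene rather than by promoter, an E-box was held by 8.09% of 27025 genes. In the promoters of *Per1*, *Ciart*, *Bhlhe41* and *Tef* an E-box was found, with 3 in that of *Ciart*. *Nr1d1* held AACGTG, *Per3* held 2 D-boxes, and the second listed *Arntl* start held TAGGTCA 31 bases into the transcript. None of these letters was found in the listed promoters of *Dbp* and *Nr1d2*. These matches are descriptions of the windows and no measure of binding. The stretches before the start are given on the strand of the gene, with the motif in capitals. They lie at chr11:69098768-69098803 (*Per1*, plus strand), chr3:95882252-95882359 (*Ciart*, minus), chr6:145865553-145865588 (*Bhlhe41*, minus), chr15:81802531-81802566 (*Tef*, first start, plus), chr11:98775385-98775420 (*Nr1d1*, minus) and chr4:151044801-151044885 (*Per3*, minus).
Per1: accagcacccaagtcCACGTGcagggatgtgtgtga
Ciart: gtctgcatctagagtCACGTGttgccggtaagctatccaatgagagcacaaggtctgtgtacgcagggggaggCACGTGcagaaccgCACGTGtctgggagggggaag
Bhlhe41: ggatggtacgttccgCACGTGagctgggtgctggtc
Tef: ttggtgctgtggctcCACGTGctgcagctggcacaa
Nr1d1: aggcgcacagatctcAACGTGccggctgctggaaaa
Per3: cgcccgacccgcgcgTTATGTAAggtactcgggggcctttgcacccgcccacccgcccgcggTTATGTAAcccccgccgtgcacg

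The libraries held between 17085018 and 26010509 reads on genes, and a member was read between 164 (*Ciart*) and 10898 (*Tef*) times in a library. Counting error weighs most on *Ciart*, which had 222 to 386 reads in the thalamus beside a residual SD of 0.10 on the log2 scale. The libraries differed in how they weighted genes by base composition. The GC measure of a library, which is the median log2 level of the 1388 genes richest in GC minus that of the 1388 poorest, lay between 0.41 and 1.24 for cortex, 0.71 and 3.39 for hippocampus, and 0.45 and 3.65 for thalamus. It was highest in WT CON animal 1 in the hippocampus and in WT CON animal 2 in the thalamus. In the thalamus every WT CON library (1.09, 3.65, 2.16 and 1.42) was above every GFP-BM CON and GFP-BM REPOP library (up to 0.94). Several marker sets did not separate the dissected regions. The summed FPKM of 7 hippocampal markers was 41.0 to 201 in the hippocampus, 40.1 to 64.2 in the cortex and 44.0 to 92.7 in the thalamus. That of 8 striatal markers was 67.9 to 1621 in hippocampal libraries, 234 to 596 in the cortex and 250 to 998 in the thalamus. That of 7 thalamic markers was 172 or more in the thalamus and 75.4 or less in the cortex, but reached 259 in the hippocampus, and 6 cortical markers reached 263 in a hippocampal library, above the lowest cortex library (249). The summed FPKM of 8 suprachiasmatic and hypothalamic markers was 60.3 to 375 in the thalamus, up to 86.6 in the cortex and up to 38.9 in the hippocampus. The part of dissection in the results was not tested. In bulk tissue, fewer cells of a type and less RNA per cell cannot be told apart.

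Levels are given as FPKM, fragments scaled to gene length and library size. Between genes they can be set side by side only roughly, since the libraries weighted genes by base composition. In WT CON cortex, *Tef* (96.4 ± 6.13, SD, n = 3) and *Nr1d1* (96.1 ± 3.99) were the most abundant members. *Dbp* (40.9 ± 3.73), *Per1* (34.2 ± 4.78), *Nr1d2* (28.8 ± 1.19) and *Bhlhe41* (22.3 ± 2.504) followed. *Arntl* (13.1 ± 1.06), *Ciart* (12.8 ± 1.51), *Per3* (12.1 ± 0.279) and *Per2* (9.09 ± 0.571) were lowest.

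Within each gene the levels of the 3 regions were compared in WT CON in 1 limma fit of the whole series, in which the animal was a random block. A difference was called at a Benjamini-Hochberg adjusted p under 0.05 over all genes tested. Between thalamus and cortex 3 members were called, against 30% of all genes, between hippocampus and cortex 3, against 36.9%, and between hippocampus and thalamus 2, against 17.7%. *Arntl* was highest in the cortex. It was lower in the thalamus (8.62 ± 1.15 FPKM, n = 4) by 0.60 on the log2 scale (log2 difference -0.60, SE 0.11, adjusted p = 0.00028) and in the hippocampus (9.62 ± 0.733, n = 4, log2 difference -0.44, SE 0.11, adjusted p = 0.0032), while the latter 2 regions were not told apart (adjusted p = 0.281). *Bhlhe41* had the reverse order, from 22.3 in the cortex over 27.2 ± 3.63 in the hippocampus to 32.2 ± 4.78 in the thalamus, with only the ends called different (log2 difference 0.52, SE 0.14, adjusted p = 0.0083). In WT CON thalamus it was lowest (25.6) in the library of lowest GC measure (1.09) and highest (36.9) in that of highest GC measure (3.65). The difference of *Bhlhe41* adjusted for GC dependence is not reported here.

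*Per1* was lower in the thalamus (23.8 ± 3.44, n = 4) than in the cortex (log2 difference -0.52, adjusted p = 0.0426) and the hippocampus (35.3 ± 4.84, log2 difference of hippocampus minus thalamus 0.56, adjusted p = 0.0296). *Per2* was higher in the hippocampus (9.96 ± 1.24) than in the thalamus (7.13 ± 0.815, log2 difference 0.48, adjusted p = 0.0243). The calls between hippocampus and thalamus were lost in some fits that left out a single WT CON animal, as given with the processing. *Ciart* was lower in the hippocampus (9.57 ± 0.928) than in the cortex (log2 difference -0.41, adjusted p = 0.0478). *Nr1d2* was lower in the hippocampus (10.6 ± 5.16) than in the cortex (log2 difference -1.56, SE 0.39, adjusted p = 0.0037), and this difference was -0.64 (adjusted p = 0.018) once the libraries were adjusted for their GC dependence. The levels of *Dbp*, *Tef*, *Nr1d1* and *Per3* did not differ beyond the threshold between any pair of regions.

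**Figure D1:**
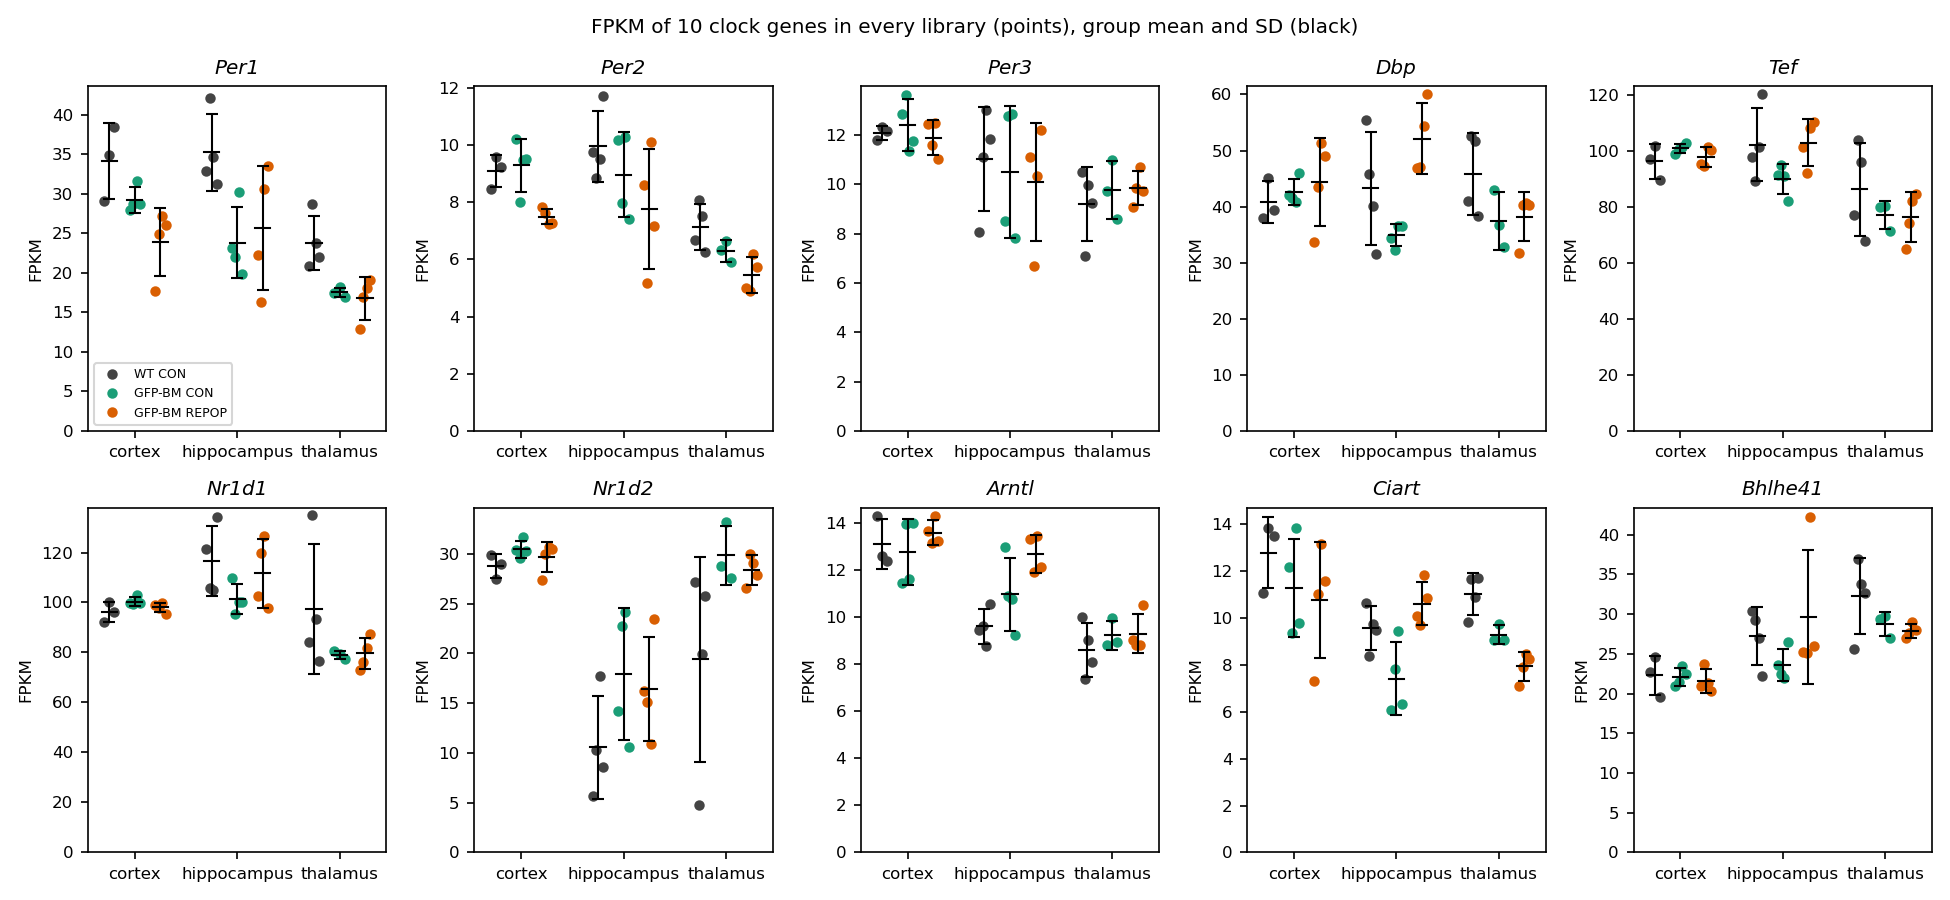
FPKM of the 10 clock genes (vertical axes, from 0) in each library of the cortex, hippocampus and thalamus, coloured by treatment, with group mean and SD in black and n of 3 or 4 per group. *Nr1d1*, *Nr1d2* and *Tef* lie close together in all cortex libraries, *Per1* and *Per2* of GFP-BM REPOP lie below WT CON in the cortex and thalamus, and *Nr1d2* falls to 5.66 and 4.72 in single WT CON libraries.

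The treatments were compared within each region. None of the 10 members was called in any of the 9 comparisons. For GFP-BM REPOP against WT CON, the share of all genes called was 0.734% for cortex, 0.0136% for hippocampus and 0.836% for thalamus. For GFP-BM CON against WT CON the shares were 0.32%, 0% and 0%. Between the irradiated groups they were 0.0476%, 0.0272% and 0%. At an unadjusted p under 0.05, GFP-BM REPOP against WT CON had 2, 2 and 3 members in these regions. GFP-BM CON against WT CON had 0, 3 and 2, and the irradiated groups against each other 2, 2 and 1. The share of all genes at this unadjusted threshold is not given here, so these counts were not read as an excess of members. The comparisons share their control libraries and are not independent of each other.

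Members whose groups did not overlap were counted too. In GFP-BM REPOP against WT CON there were 2 for cortex (9.48% of all genes), 1 for hippocampus (4%) and 3 for thalamus (18.8%). In GFP-BM CON against WT CON there were 0 (16%), 1 (13.7%) and 3 (23.1%). In GFP-BM REPOP against GFP-BM CON there were 2 (3.09%), 2 (6.88%) and 1 (4.56%).

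Among the repressors, *Per1* stood lower in both irradiated groups. In the cortex it was 29.0, 34.9 and 38.5 FPKM in WT CON, 28.0, 28.7, 31.6 and 28.7 in GFP-BM CON, and 17.7, 24.9, 27.2 and 26.0 in GFP-BM REPOP. All GFP-BM REPOP libraries were below all others of the cortex, while GFP-BM CON overlapped WT CON. The log2 difference of GFP-BM REPOP from WT CON was -0.52 (SE 0.13, limma adjusted p = 0.133), and from GFP-BM CON it was -0.30 (SE 0.12, adjusted p = 1).

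*Per1* in the hippocampus was 32.9, 42.2, 34.7 and 31.2 FPKM in WT CON, 23.1, 22.1, 30.2 and 19.9 in GFP-BM CON, and 22.3, 16.3, 30.6 and 33.5 in GFP-BM REPOP. Here GFP-BM CON was wholly below WT CON (log2 difference -0.57, SE 0.21, adjusted p = 0.14), while GFP-BM REPOP reached into the WT CON range (log2 difference -0.50, SE 0.21, adjusted p = 0.485). In the thalamus *Per1* was 20.8, 28.7, 23.7 and 22.1 in WT CON, 17.5, 18.2 and 17.0 in GFP-BM CON, and 12.95, 17.0, 18.1 and 19.2 in GFP-BM REPOP. Both irradiated groups lay below WT CON there, with log2 differences of -0.43 (SE 0.15, adjusted p = 0.176) for GFP-BM CON and -0.51 (SE 0.14, adjusted p = 0.079) for GFP-BM REPOP.

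*Per2* of GFP-BM REPOP lay below that of WT CON, by less than *Per1* did. In the cortex it was 8.47, 9.59 and 9.23 FPKM in WT CON, 10.2, 8.002, 9.47 and 9.50 in GFP-BM CON, and 7.82, 7.63, 7.26 and 7.29 in GFP-BM REPOP. The GFP-BM REPOP values were the 4 lowest of the region, with a log2 difference of -0.27 (SE 0.08, adjusted p = 0.184) from WT CON and of -0.30 (SE 0.08, adjusted p = 0.431) from GFP-BM CON. In the hippocampus the groups overlapped, with 9.77, 8.85, 9.51 and 11.7 in WT CON and 8.60, 5.18, 10.1 and 7.16 in GFP-BM REPOP (log2 difference -0.39, SE 0.20, adjusted p = 0.533). In the thalamus WT CON had 6.68, 8.08, 7.51 and 6.27, GFP-BM CON 6.33, 6.65 and 5.91, and GFP-BM REPOP 4.99, 4.90, 6.19 and 5.74. GFP-BM REPOP was just below WT CON in every library (log2 difference -0.38, SE 0.12, adjusted p = 0.114).

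*Per3*, the third Period gene, overlapped between all groups in every region. It ranged from 11.03 to 13.6 FPKM in the cortex, from 6.68 to 13.01 in the hippocampus and from 7.11 to 10.98 in the thalamus. Its log2 differences from WT CON lay between -0.14 and 0.11, with the smallest adjusted p at 0.562 for GFP-BM REPOP in the thalamus.

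*Dbp*, whose transcript has one of the widest daily swings in many tissues, gave different patterns in the 3 regions. In the cortex it was 38.0, 45.1 and 39.5 FPKM in WT CON, 42.1, 41.5, 40.8 and 46.0 in GFP-BM CON, and 33.7, 43.5, 51.3 and 49.1 in GFP-BM REPOP. The GFP-BM REPOP libraries were both the lowest and the highest of that region. In the hippocampus GFP-BM CON had 34.4, 32.3, 36.6 and 36.5, GFP-BM REPOP 46.9, 47.1, 54.3 and 60.1, and WT CON spread over both with 55.5, 45.8, 40.1 and 31.6. GFP-BM REPOP was above GFP-BM CON in every hippocampal library (log2 difference 0.57, SE 0.15, adjusted p = 0.21). In the thalamus the values were 41.0, 52.5, 51.7 and 38.3 in WT CON, 42.9, 36.8 and 32.7 in GFP-BM CON, and 31.7, 40.2, 40.6 and 40.2 in GFP-BM REPOP. They overlapped, with log2 differences from WT CON of -0.29 (SE 0.15) and -0.26 (SE 0.14).

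*Tef*, the second PAR bZIP member, moved least in the cortex, where all 11 libraries lay between 89.8 and 103 FPKM. It ranged from 82.3 to 121 in the hippocampus and from 65.0 to 104 in the thalamus, with overlapping groups and an adjusted p of at least 0.32 in all 9 comparisons.

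*Nr1d1* was the steadiest member of the cortex, at 92.1, 100.1 and 96.2 FPKM in WT CON, 99.7, 99.3, 103 and 99.6 in GFP-BM CON, and 99.0, 97.9, 99.8 and 95.4 in GFP-BM REPOP. The highest library was 1.12 times the lowest, and the residual SD of 0.04 on the log2 scale was at percentile 1.6 of all genes tested. In the thalamus WT CON spread from 76.8 to 135, with the high value in animal 2, against 77.3 to 80.6 in GFP-BM CON and 73.0 to 87.2 in GFP-BM REPOP.

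*Nr1d2*, its paralogue, was also even in the cortex, between 27.4 and 31.7 FPKM, and scattered elsewhere. In the hippocampus it was 5.66, 10.3, 17.8 and 8.60 in WT CON, 14.2, 22.8, 24.2 and 10.6 in GFP-BM CON, and 16.3, 15.1, 10.9 and 23.5 in GFP-BM REPOP. In the thalamus it was 27.2, 4.72, 19.97 and 25.8 in WT CON, 28.8, 33.2 and 27.6 in GFP-BM CON, and 26.6, 30.0, 29.1 and 27.9 in GFP-BM REPOP. The low values were those of WT CON. The log2 differences of GFP-BM CON from WT CON were 0.80 (SE 0.36, adjusted p = 0.199) in the hippocampus and 0.89 (SE 0.49, adjusted p = 0.287) in the thalamus.

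The low values of *Nr1d2* fell in the libraries with a high GC measure. The longest transcript of *Nr1d2* has a GC content of 41.8%, against 56.8% for *Nr1d1* and 61.6% for *Dbp*. Over the 34 libraries, with group means removed, the correlation with the GC measure was -0.93 for *Nr1d2*, 0.70 for *Nr1d1*, 0.59 for *Bhlhe41*, -0.53 for *Per3* and 0.07 for *Per1*, where the points share libraries of the same 12 animals. The part of the GC measure in the differences of *Nr1d2* and *Nr1d1* was not tested beyond the correction for GC content.

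**Figure D2:**
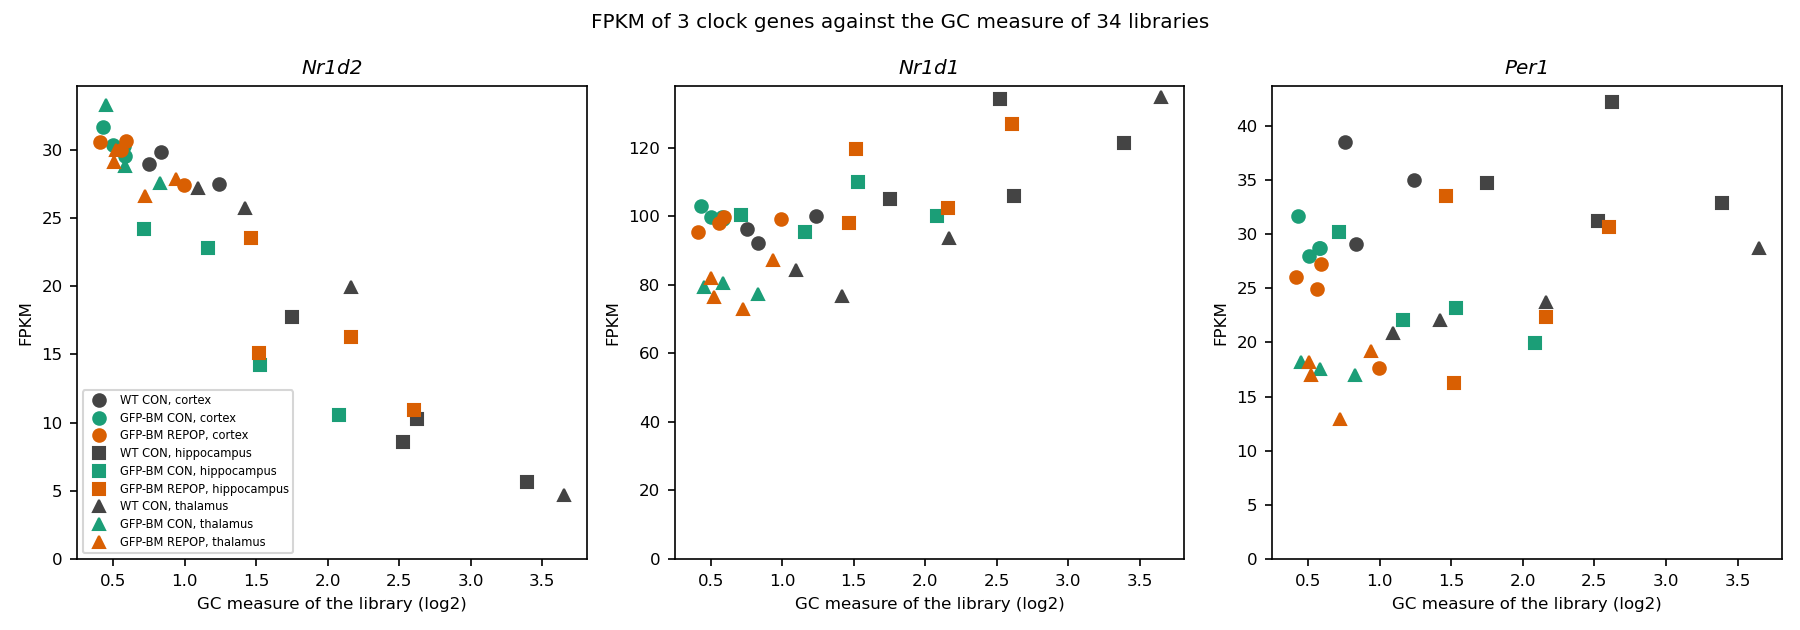
FPKM of *Nr1d2*, *Nr1d1* and *Per1* (vertical axes, from 0) against the GC measure of each of 34 libraries (horizontal axis, log2), with colour for treatment and shape for region. *Nr1d2* falls from 33.2 to 4.72 along the axis, *Nr1d1* tends upwards, and *Per1* shows no such slope.

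*Arntl*, the activator, was somewhat higher in the hippocampus of GFP-BM REPOP. It was 9.48, 9.64, 8.78 and 10.6 FPKM in WT CON, 12.98, 10.9, 10.8 and 9.24 in GFP-BM CON, and 13.4, 11.9, 13.5 and 12.1 in GFP-BM REPOP. The GFP-BM REPOP and WT CON libraries did not overlap (log2 difference 0.40, SE 0.12, adjusted p = 0.365). In the cortex and thalamus the groups overlapped, with log2 differences of 0.06 and 0.12 from WT CON.

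*Ciart* went in different directions by region. In the thalamus it was 9.82, 11.7, 10.9 and 11.7 FPKM in WT CON, 9.06, 9.75 and 9.07 in GFP-BM CON, and 7.08, 7.92, 8.47 and 8.26 in GFP-BM REPOP. The 3 groups were fully separate there, in that order, and the difference of GFP-BM REPOP from WT CON came closest to the threshold of any member (log2 difference -0.47, SE 0.09, adjusted p = 0.0511). It passed under 5 of the 22 alternative settings, listed with the processing. In the hippocampus GFP-BM CON was low, at 6.09, 7.82, 9.43 and 6.32, beside 10.1, 9.71, 11.8 and 10.8 in GFP-BM REPOP (log2 difference 0.53, SE 0.15, adjusted p = 0.236) and 10.6, 8.39, 9.75 and 9.47 in WT CON.

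*Bhlhe41*, which is expressed by neurons and also by microglia, overlapped between the groups of all regions except for 1 high library. It was 25.3, 25.1, 42.3 and 26.0 FPKM in GFP-BM REPOP hippocampus, 30.4, 29.3, 26.99 and 22.2 in WT CON, and 23.6, 22.4, 22.02 and 26.4 in GFP-BM CON. Of 8 microglial markers, summed, the cortex held 101 or more in WT CON and 75.4 to 82.3 in GFP-BM REPOP. *Bhlhe41* in the cortex was 19.6 to 24.5 and 20.3 to 23.8 in the same groups. In the thalamus the medians, in the same order, were 120.8 and 87.2 for the sum and 33.2 and 27.8 for *Bhlhe41*. In the hippocampus they were 123.5 and 92.5 for the sum and 28.1 and 25.7 for *Bhlhe41*. The hippocampal mean of *Bhlhe41* went the other way (27.2 and 29.7). The part of microglia in the *Bhlhe41* values was not tested.

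**Figure D3:**
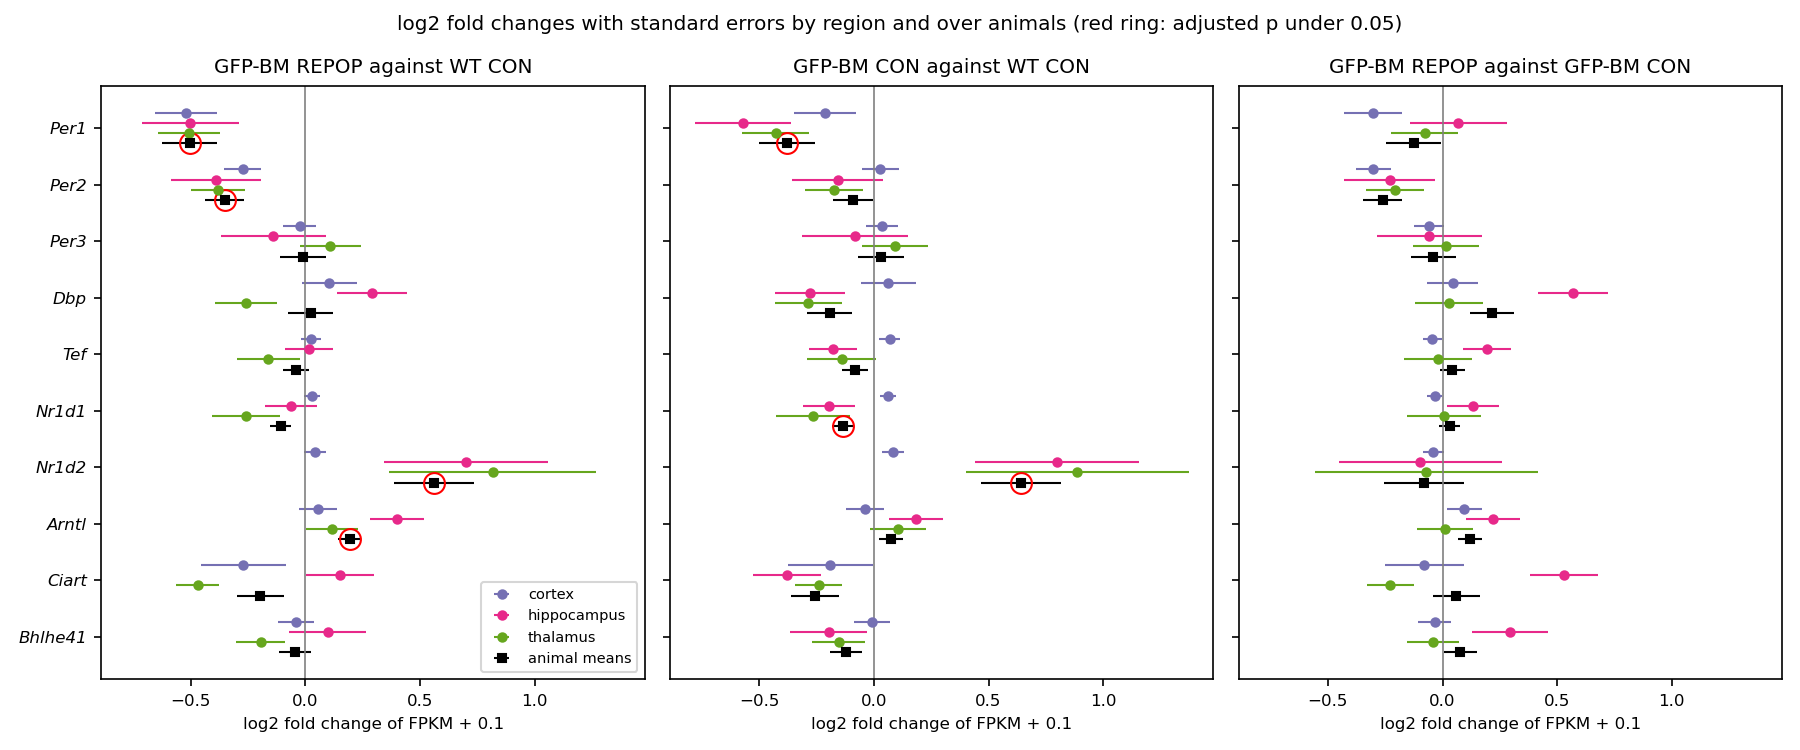
log2 fold changes (horizontal axis) with standard errors for the 10 clock genes in the 3 treatment comparisons, by region (circles) and over animal means (squares), with a red ring where the adjusted p was under 0.05. *Per1* and *Per2* of GFP-BM REPOP lie to the left of WT CON in all 3 regions, whereas *Dbp* and *Ciart* lie on different sides of 0 by region.

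Whether a treatment difference depended on the region was tested as a difference of differences. No member was called in any of the 9 contrasts. The shares of all genes called were 0%, 0% and 0% for thalamus minus cortex, 0.034%, 0% and 0.177% for hippocampus minus cortex, and 0.034%, 0% and 0.0272% for hippocampus minus thalamus, where the first value compares GFP-BM REPOP and the second GFP-BM CON with WT CON, and the third compares the irradiated groups. The widest contrast was that of *Nr1d2* for GFP-BM CON against WT CON, thalamus minus cortex (0.80, SE 0.56, adjusted p = 0.707). For GFP-BM REPOP against GFP-BM CON, hippocampus minus thalamus, *Ciart* gave 0.75 (SE 0.22, adjusted p = 0.286) and *Dbp* 0.54 (SE 0.22, adjusted p = 0.523). For GFP-BM REPOP against WT CON, *Per1* gave 0.02 (SE 0.26) for thalamus minus cortex and 0.02 (SE 0.26) for hippocampus minus cortex, so that a difference between regions of up to the size of its own change was within about 2 SE.

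The regions of each animal were then averaged on the log2 scale, after the mean of each region was removed, so that the animal was the unit (n = 4 per group). In GFP-BM REPOP against WT CON 4 members were called, against 18.7% of all genes. In GFP-BM CON against WT CON 3 were called, against 32.6%. Between the irradiated groups 0 were called, against 0.109%. A member of this list was thus called about as often as any gene would be in the second comparison.

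*Per1* fell in both irradiated groups. On the log2 scale the animals' means were 4.82, 5.04, 4.94 and 4.90 in WT CON, 4.50, 4.50, 4.77 and 4.42 in GFP-BM CON, and 4.11, 4.26, 4.63 and 4.68 in GFP-BM REPOP. No irradiated animal reached the lowest WT CON animal. The log2 difference was -0.50 (SE 0.12, adjusted p = 0.0168) for GFP-BM REPOP and -0.38 (SE 0.12, adjusted p = 0.0315) for GFP-BM CON. *Per2* fell in GFP-BM REPOP only by the test (log2 difference -0.35, SE 0.09, adjusted p = 0.0186), since GFP-BM CON did not pass (log2 difference -0.09, SE 0.09, adjusted p = 0.438). The difference between the irradiated groups did not pass either (log2 difference -0.26, SE 0.09, adjusted p = 0.455). The *Per2* means were 3.10, 3.10, 3.16 and 3.15 in WT CON, 3.14, 2.93, 3.16 and 2.92 in GFP-BM CON, and 2.82, 2.56, 2.96 and 2.76 in GFP-BM REPOP, all of the last below all of the first.

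The *Arntl* means were 3.43, 3.35, 3.34 and 3.36 in WT CON, 3.47, 3.54, 3.36 and 3.41 in GFP-BM CON, and 3.58, 3.49, 3.59 and 3.59 in GFP-BM REPOP. GFP-BM REPOP was above WT CON in every animal. *Arntl* rose in GFP-BM REPOP (log2 difference 0.19, SE 0.05, adjusted p = 0.0249). *Nr1d2* rose in GFP-BM REPOP (log2 difference 0.56, SE 0.17, adjusted p = 0.0428) and GFP-BM CON (log2 difference 0.64, SE 0.17, adjusted p = 0.0158), and *Nr1d1* fell in GFP-BM CON (log2 difference -0.14, SE 0.05, adjusted p = 0.0373). In an exact two-sided permutation test of the animal means, *Per1*, *Per2* and *Arntl* reached the smallest p that 4 against 4 animals allow (p = 0.0286) for GFP-BM REPOP, and *Per1* and *Nr1d1* did so for GFP-BM CON, but the adjusted p over the 30 tests was 0.171 for each. *Nr1d2* did not, with an exact p of 0.0571 in both.

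The calls were lost when base composition was taken into account. With each library corrected for GC content 0 members were called. The log2 differences of GFP-BM REPOP from WT CON became -0.39 for *Per1* (SE 0.13, adjusted p = 0.063), -0.25 for *Per2* (SE 0.09, adjusted p = 0.0896), 0.16 for *Arntl* (SE 0.05, adjusted p = 0.0546) and 0.12 for *Nr1d2* (SE 0.11, adjusted p = 0.499). Without WT CON animal 1 in the hippocampus and WT CON animal 2 in the thalamus, the 2 libraries of highest GC measure, 0 were called as well (*Per1* -0.47, adjusted p = 0.0712). The shares of all genes called under these settings are not given here. In the cortex, where the GC measure varied least, the difference of *Per1* was -0.52 before and -0.51 after the correction.

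**Figure D4:**
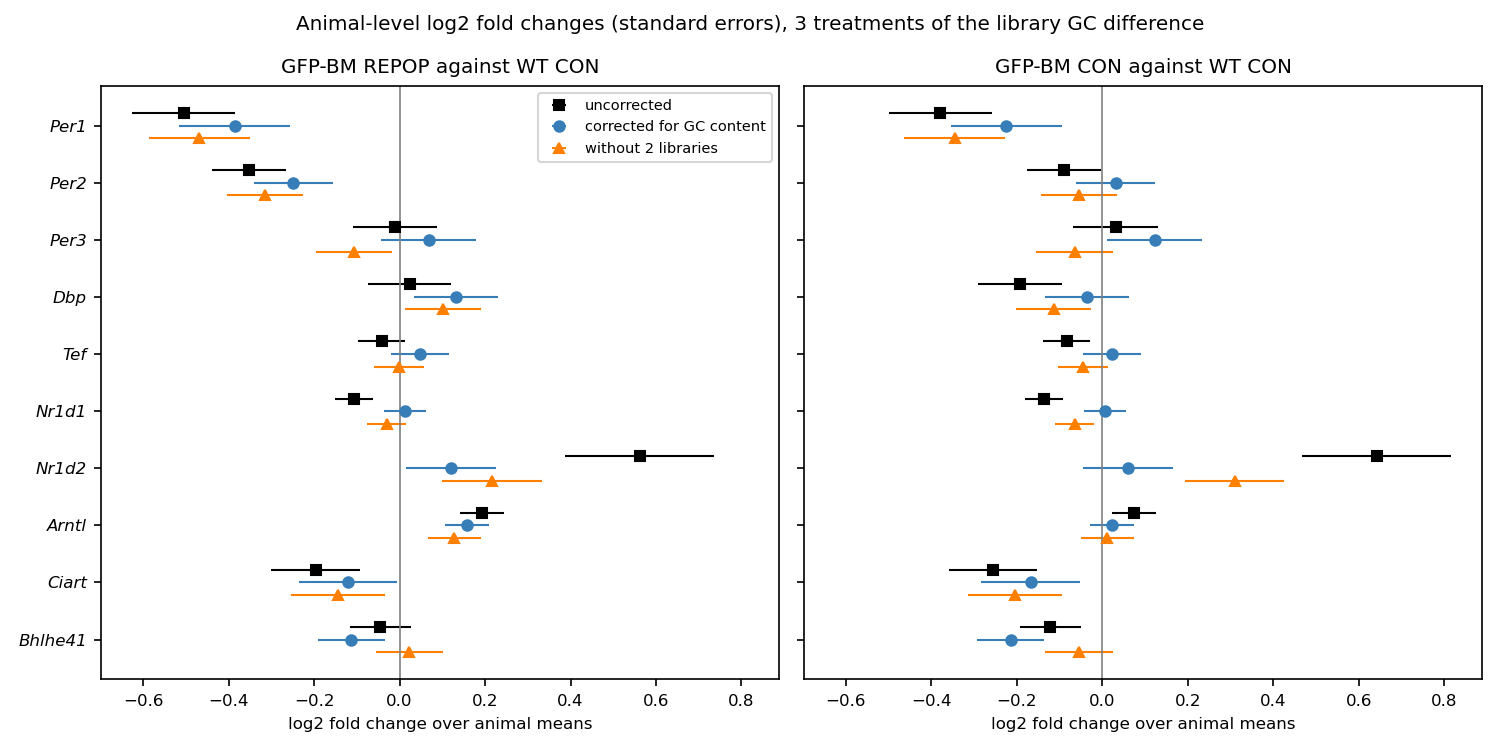
log2 fold changes over animal means (horizontal axis) with standard errors for the 10 clock genes, as deposited, after correction for GC content, and without the 2 libraries of highest GC measure. The values of *Nr1d2* move from 0.56 to 0.12 and from 0.64 to 0.06 with the correction, and those of *Per1* from -0.50 to -0.39 and from -0.38 to -0.22.

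Clock transcripts vary with the hour of the day, which the regions of an animal share, so the agreement between regions was measured. For each member and pair of regions the group-centred log2 values of the same animals were correlated, with exact permutation of animals within groups (two-sided, 30 correlations). Of the 30 Pearson correlations 18 were above 0, with a median of 0.10, and none had an adjusted p under 0.05 or an unadjusted p under 0.05 (smallest exact p = 0.0764, *Per3*, cortex and thalamus, r = 0.55, n = 10 animals, Spearman's rho = 0.67 with exact p = 0.0451, r = 0.53 without the 2 farthest animals). All adjusted p were 0.89. By rank, that pair and *Per1* between hippocampus and thalamus (rho = 0.70, exact p = 0.0312) were under 0.05 unadjusted, each with an adjusted p of 0.677. After the correction for GC content 23 of the 30 Pearson correlations were above 0, with a median of 0.18. Then 3 had an unadjusted exact p under 0.05, all between cortex and thalamus. They were *Per3* (r = 0.64, p = 0.0197), *Per1* (r = 0.91, p = 0.0266) and *Tef* (r = 0.81, p = 0.0359), each with an adjusted p of 0.359. With 10 or 11 animals and 3 group means removed, only a strong agreement could have passed. Since the group means were removed, a difference in collection hour between treatments does not enter these correlations. As that hour is not given, it cannot be told apart from treatment in the differences between groups.

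The members differed in this respect. *Ciart* had r of 0.47 between cortex and hippocampus, 0.57 between cortex and thalamus and 0.07 between hippocampus and thalamus. *Dbp* had 0.42, 0.45 and 0.23, and *Per1* had 0.17, 0.43 and 0.55. The means over the 3 pairs, 0.37, 0.37 and 0.38, were at percentiles 94.1, 94.1 and 94.7 of all genes tested, whose median was -0.05. Between cortex and thalamus the agreement rested on few animals. Without the 2 farthest, r was 0.12 for *Ciart*, 0.03 for *Dbp* and 0.19 for *Per1*. In that order it was 0.73, 0.30 and 0.38 between cortex and hippocampus, and 0.10, 0.25 and 0.82 between hippocampus and thalamus. *Arntl*, *Nr1d1* and *Nr1d2* had mean r of -0.28, -0.30 and -0.22. After the correction for GC content the means were 0.63 for *Ciart*, 0.56 for *Per1* and 0.46 for *Dbp*, at percentiles 99.1, 98.6 and 96.8, and -0.24 for *Arntl*. This is a description, and the share of the hour of collection in it was not tested.

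**Figure D5:**
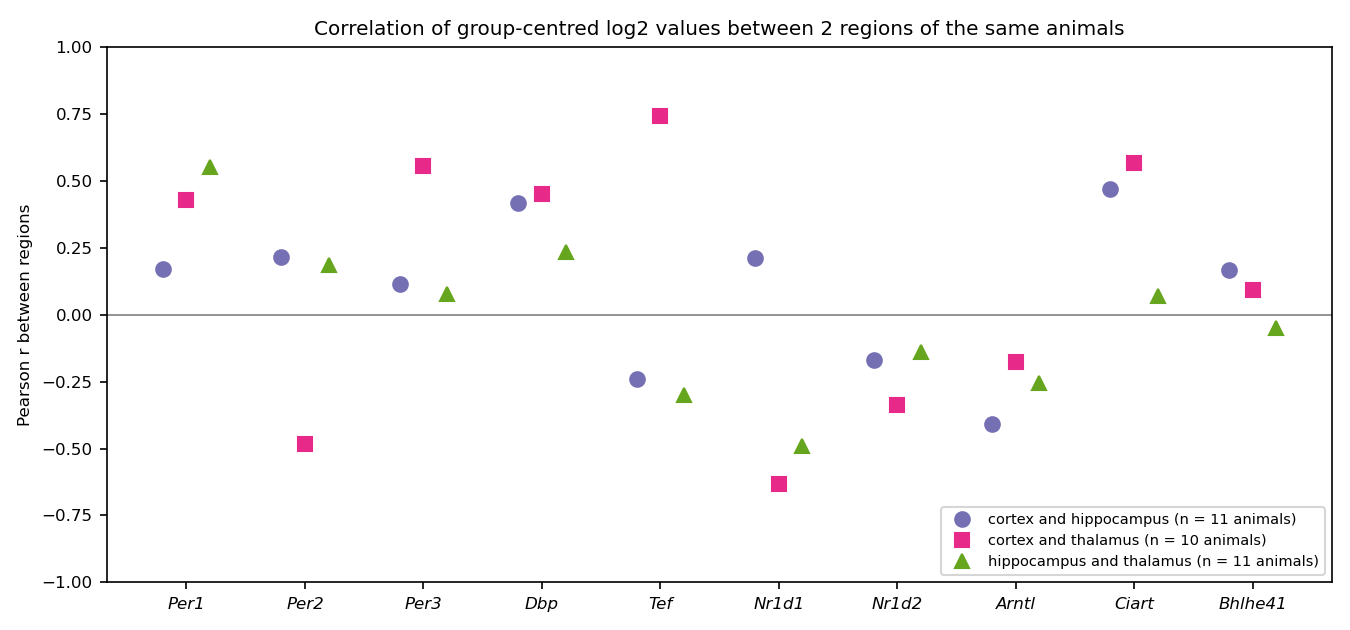
Pearson correlation (vertical axis) of group-centred log2 values between 2 regions of the same animals, for each of the 10 clock genes and 3 pairs of regions with n of 10 or 11 animals. *Per1*, *Per3*, *Dbp* and *Ciart* lie above 0 for all 3 pairs, *Arntl* and *Nr1d2* below 0 for all 3.

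GFP-BM REPOP animal 1 was low in 2 regions. Its cortex and thalamus libraries were the lowest of their regions for *Per1* (17.7 and 12.95 FPKM), *Dbp* (33.7 and 31.7) and *Ciart* (7.33 and 7.08). Its hippocampal library was not the lowest for any of these 3 genes. It held 22.3 FPKM of *Per1*, 46.9 of *Dbp* and 10.1 of *Ciart*, beside medians of 30.4, 42.9 and 9.59 over all hippocampal libraries. In the same animal the summed FPKM of 11 immediate early genes, such as *Fos*, *Arc* and *Egr1*, was the lowest of the cortex (130, others 264 to 547) and of the thalamus (62.3, others 87.0 to 171).

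The summed FPKM of the immediate early genes was set beside *Per1* by treatment. It was 368 to 547 in WT CON cortex, 264 to 341 in GFP-BM CON and 130 to 408 in GFP-BM REPOP, in the same order 232 to 473, 132 to 230 and 178 to 373 in the hippocampus, and 134 to 171, 87.0 to 102 and 62.3 to 144 in the thalamus. The median of GFP-BM REPOP was above that of GFP-BM CON in each region (313 and 279, 271 and 184, 117 and 88.7). The medians of *Per1* in the same order were 25.5 and 28.7, 26.5 and 22.6, and 17.6 and 17.5 FPKM. Over animal means *Per1* was not told apart between the irradiated groups (log2 difference -0.13, SE 0.12, limma adjusted p = 0.742). Over animal means 8 of the 11 were called lower and 0 higher in GFP-BM CON against WT CON, where 32.6% of all genes were called, and 0 in GFP-BM REPOP against WT CON, where 18.7% were. Over the 34 libraries, with group means removed, the correlation of a member with this sum was 0.81 for *Per1*, 0.67 for *Dbp*, 0.48 for *Ciart* and 0.20 for *Per2*. That of *Arntl* was -0.00 and of *Nr1d2* 0.03, and the points share animals and libraries. Of 9 genes that respond to glucocorticoids, 0 were called in any of the 3 animal-level comparisons. The part of neuronal activity, behavioural testing or handling at death in the *Per1* values was not tested.

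A clock index was formed from the mean log2 level of *Per1*, *Per2*, *Per3*, *Dbp*, *Nr1d1*, *Nr1d2*, *Ciart* and *Tef* minus that of *Arntl*. It is highest when the E-box and D-box genes are high and the activator is low. It ranged in the cortex from 0.94 to 1.26 in WT CON, 0.99 to 1.35 in GFP-BM CON and 0.81 to 1.06 in GFP-BM REPOP. In the hippocampus it was 1.27 to 1.63, 0.78 to 1.33 and 0.84 to 1.25, and in the thalamus 1.25 to 1.61, 1.23 to 1.37 and 1.06 to 1.38. The only pair of groups that did not overlap was WT CON and GFP-BM REPOP in the hippocampus, and the index includes *Nr1d2* and the GC-dependent values above.

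Other parts of the clock were counted in a list of 18 genes. In none of the 9 comparisons within a region was any of them called. Over animal means, 4 were called higher and 5 lower in GFP-BM REPOP against WT CON, and 5 higher and 7 lower in GFP-BM CON against WT CON, beside the background shares given above. *Clock*, the partner of *Arntl*, was higher by 1.19 (SE 0.22, adjusted p = 0.0083) and 1.65 (SE 0.22, adjusted p = 0.00065) on the log2 scale. *Rora* and *Rorb*, the activators that compete with the REV-ERBs, were higher by 1.33 and 0.95 in GFP-BM REPOP and by 1.5 and 1.04 in GFP-BM CON. *Nfil3*, which opposes DBP and TEF at D-boxes, was lower by log2 differences of -0.49 and -0.49. *Btrc* (-0.22 and -0.27), *Fbxw11* (-0.25 and -0.21), *Csnk1d* (-0.15 and -0.13) and *Cry2* (-0.16 and -0.25) were lower in both. *Cry1* (-0.29), *Usp2* (-0.25) and *Arntl2* (0.79) were called in GFP-BM CON alone.

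With the correction for GC content, 3 of the 18 were called higher and 3 lower in each comparison. *Clock* was then higher by 0.68 and 0.98, *Rora* by 0.83 and 0.83 and *Rorb* by 0.50 and 0.43, while *Btrc*, *Fbxw11* and *Nfil3* were lower. Without the 2 libraries of highest GC measure 0 of the 18 were called in GFP-BM REPOP against WT CON and 8 in GFP-BM CON against WT CON. The shares of all genes called under these settings are not given here. These counts, and those of the output genes after the correction, therefore lack a background. Of 8 clock output genes, *Nampt*, which encodes an enzyme of NAD salvage, was called higher in both comparisons (0.51 and 0.62), and *Lonrf3* (0.99) and *Cirbp* (-0.22), a cold-inducible RNA-binding protein, in GFP-BM CON. After the correction *Coq10b* and *Rbm3*, another cold-inducible RNA-binding protein, were called lower in GFP-BM REPOP (-0.45 and -0.41) and GFP-BM CON (-0.68 and -0.57), *Lonrf3* was called higher in GFP-BM CON (1.06), and *Nampt* and *Cirbp* were not called.

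Between regions of WT CON, more of these genes differed. The shares of all genes called were 30% for thalamus against cortex, 36.9% for hippocampus against cortex and 17.7% for hippocampus against thalamus. The values below are without the correction for GC content. The GC measure of WT CON was 0.75 to 1.24 in the cortex, 1.75 to 3.39 in the hippocampus and 1.09 to 3.65 in the thalamus. These contrasts were also fitted with the correction for GC content, but the corrected values of these genes are not reported here. The part of the GC measure in these differences was not tested beyond that. Of the 18, 9 were called lower and 2 higher in the thalamus than in the cortex, among them *Rorb* (-1.56), *Clock* (-1.74), *Arntl2* (-1.42), *Hlf* (-0.99), *Npas2* (-0.74), *Bhlhe40* (-0.62), *Usp2* (-0.58) and *Csnk1e* (-0.30) on the lower side and *Fbxl21* (0.67) on the higher. In the hippocampus *Rorb* (-3.14), *Rora* (-3.11), *Clock* (-2.65), *Arntl2* (-1.57), *Hlf* (-1.27) and *Npas2* (-0.68) were lower than in the cortex and *Csnk1d* (0.30) was higher. Against the thalamus, the hippocampus had more *Usp2* (0.72), *Nfil3* (0.63) and *Cry2* (0.43) and less *Rora* (-1.89), *Rorb* (-1.58) and *Fbxl21* (-0.76). Of the 8 clock outputs, *Wee1*, a kinase that delays mitosis, was lower than in the cortex in both other regions (-0.51 in the thalamus, -0.47 in the hippocampus), as was *Nampt* (-0.79 and -0.75), while *Tspan4* was higher (0.75 and 0.51). *Lonrf3* (-1.22), *Coq10b* (-0.38) and *Cirbp* (0.44) differed between hippocampus and cortex, and *Tsc22d3* was lower in the hippocampus than in the thalamus (-0.72).

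The genes whose residuals over the 34 libraries were most like those of 3 members were listed as a description. For *Dbp* they were *Sumo3* (r = 0.70), *Stim1* (0.68), *Nipal3* (0.68), *Egr4* (0.68) and *Gkn3* (0.68), and the most opposed were *Arsj* (-0.67), *Napepld* (-0.66), *Cdk14* (-0.65), *C530008M17Rik* (-0.63) and *Banp* (-0.62). For *Per2* they included *Trmt1* (0.86), *Ago1* (0.84), *Lmtk3* (0.82) and *Mnt* (0.82), and the most opposed were *Lair1* (-0.74), *Sntn* (-0.72), *Gclm* (-0.72), *Rsph4a* (-0.68) and *Pygl* (-0.68). For *Arntl* they were *Car7* (0.71), *Rnf216* (0.68), *Prkci* (0.68), *Mertk* (0.65) and *Dlg3* (0.64), and the most opposed were *1700001C02Rik* (-0.74), *Gm7664* (-0.71), *Iqcd* (-0.68), *Ccdc153* (-0.66) and *Tmem184a* (-0.66). No clock gene of the lists was among the 30 genes so ranked.

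Among the members themselves the residuals of *Per1* followed those of *Ciart* (r = 0.60), *Dbp* (0.60) and *Per2* (0.48). *Per3* followed *Nr1d2* (0.68, and 0.82 after the correction for GC content). *Nr1d1* and *Nr1d2* were opposed (-0.81), and less so after the correction (-0.35). *Arntl* was at -0.16 with *Dbp*, -0.04 with *Per1* and -0.04 with *Nr1d1*.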

How the data were processed

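RNA-seq was done on 34 libraries of mouse cortex, hippocampus and thalamus with striatum. The authors aligned paired reads with STAR, counted them per gene with featureCounts and deposited FPKM values, computed with edgeR and limma (mm10). The FPKM values fell on whole reads (100.0% of values within 0.01 reads), giving 17085018 to 26010509 reads per library (median 21367227).

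Values were taken as log2(FPKM + 0.1), so that fold changes of low genes are understated. Genes with FPKM of at least 1 in at least 3 libraries were tested (14710 of 16389), and 343 expressed genes of other biotypes were left out. Treatments were compared within each region, over animal means, and between regions with the animal as a random block (correlation -0.0384), using limma 3.58.1 with trend in R 4.3.3 and Benjamini-Hochberg adjustment over all genes tested. Exact permutation tests and correlations used Python 3.11.15, numpy 2.4.6, pandas 2.3.3 and scipy 1.17.1, and figures matplotlib 3.10.9. GC content was known for 13875 of the genes tested (94.3%), with GC of at least 58.2% and at most 41.5% in the upper and lower sets. The procedures were tested on simulated data.

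Groups and animals were taken from the sample labels. The p-values measure the spread between these animals. The genes, the lists and the tests were chosen with earlier results of these data known. Named genes were all members, every gene of the 18 other clock genes and 8 clock outputs that was called, and the 5 genes most and least correlated with *Dbp*, *Per2* and *Arntl*, and a few of these genes are counted but not reported here by name. Alternatives were other pseudocounts, filters, normalization and fits, voom on the recovered reads, and leaving out single animals, regions or the 2 libraries of highest GC measure, the last chosen after seeing the data.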

Additional observations from a re-analysis of the deposited data

Results flagged for a closer look

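Among 70 groups of 4 libraries, 4 had a library farther from the other 3 than Dixon's 95% limit allows, and chance alone marks about 1 group in 20. *Arntl* in the thalamus of GFP-BM REPOP was 10.5 FPKM in replicate 4 and 8.83 to 9.06 in the others. *Bhlhe41* in the hippocampus of GFP-BM REPOP was 42.3 FPKM in replicate 3 and 25.1 to 26.0 in the others. *Dbp* in the thalamus of GFP-BM REPOP was 31.7 FPKM in replicate 1 and 40.2 to 40.6 in the others. *Nr1d1* in the cortex of GFP-BM CON was 103 FPKM in replicate 3 and 99.3 to 99.7 in the others. The causes were not tested.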

How the results depend on the processing

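Members called within a region stayed at 0 in the cortex under all alternatives run. With voom on the recovered reads 0 members were called in any region, and over all genes 105, 45 and 12 in the cortex, 0, 0 and 0 in the hippocampus, and 48, 0 and 0 in the thalamus (GFP-BM REPOP and GFP-BM CON each with WT CON, then with each other). With all 9 groups in one fit the hippocampus gave 1 (*Arntl*, GFP-BM REPOP against WT CON), 1 (*Per1*, GFP-BM CON against WT CON) and 2 (*Dbp* and *Ciart*, GFP-BM REPOP against GFP-BM CON). For GFP-BM REPOP against WT CON in the thalamus, *Ciart* was called with pseudocount 1, without a filter and with all 9 groups in one fit (1 member each), and with *Per1* after quantile normalization (2). Over all genes the fit with all 9 groups called 1954 there. Leaving out 1 animal gave 0 to 3, the 3 (*Per1*, *Ciart* and *Bhlhe41*) without WT CON replicate 1.

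Over animal means, the 4 members of GFP-BM REPOP against WT CON became 0 without the cortex, 2 without the hippocampus, 0 without the thalamus, 0 after the correction for GC content and 0 without the 2 libraries of highest GC measure, and 1 to 4 when 1 animal was left out (1 without GFP-BM REPOP replicate 2 or 4, 2 without GFP-BM REPOP replicate 1 or WT CON replicate 2). The 3 of GFP-BM CON against WT CON became 1 with only animals that had all 3 regions, 0 without the hippocampus or the thalamus, 0 after the correction, 0 without the 2 libraries, and 0 to 4 when 1 animal was left out (0 without GFP-BM CON replicate 2, 1 without GFP-BM CON replicate 4 or WT CON replicate 2). Over all genes, leaving out the thalamus gave 40 calls for GFP-BM REPOP and 971 for GFP-BM CON against WT CON. The log2 difference of *Nr1d1* in GFP-BM CON turned from -0.14 to 0.01 with the correction. In the 24 alternatives *Per1* in GFP-BM REPOP kept its call in 19, with log2 differences of -0.59 to -0.39.

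Replicate numbers were shared between groups. Deviations from the group means, over all genes, had correlations between -0.43 and 0.49 for same-numbered libraries of different groups. For differently numbered libraries they lay between -0.59 and 0.70, so the numbers were not taken to pair the samples. With the replicate block 2 members (*Per1* and *Per2*) were called in GFP-BM REPOP against WT CON over animal means and 2 in GFP-BM CON against WT CON, and no call within a region changed.

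The 9 contrasts between regions gave 0 to 1 call when 1 animal was left out (*Dbp* without WT CON replicate 1). In WT CON, thalamus against cortex gave 5 members after the correction and 1 to 4 with 1 animal left out (1 without replicate 4), hippocampus against cortex 2 to 4, and hippocampus against thalamus 0 to 5 (0 without replicate 3 or 4, 1 without replicate 1, 5 without replicate 2), and 5 without the 2 libraries. Counts over all genes moved more, from 108 to between 27 and 242 in the cortex and from 2749 to between 40 and 3359 over animal means for GFP-BM REPOP against WT CON. The causes were not tested.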
